A study of Mus musculus with 12 samples.

Results

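The Hox genes of clusters A to D are 39 of the 23421 gene symbols in the deposited expression table. They were chosen by name alone, as the symbols that consist of Hox, a cluster letter from a to d and a paralog number, and no measured value entered the choice. Cluster A holds 11 of them on chromosome 6, cluster B holds 10 on chromosome 11 (96194316 to 96368254), cluster C holds 9 on chromosome 15 (102921131 to 103036856) and cluster D holds 9 on chromosome 2 (74668225 to 74765142). All 39 symbols were found in the RefSeq annotation of GRCm38.p6 (mm10), from which these coordinates come.

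Hox genes encode homeodomain transcription factors that give cells their position along the head-to-tail axis. Within each cluster the genes lie in the order of their use: genes with low paralog numbers are switched on early and reach far forward, and genes with high numbers are switched on late and stay near the tail, a relation known as collinearity. Genes that share a paralog number in different clusters descend from the same ancestral gene and overlap in function. In the caudal end of the mouse embryo, progenitors that express T (Brachyury) acquire Hox expression in this sequence while WNT signals and CDX factors act on them.

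Expression was measured by RNA sequencing of T-positive cells collected by flow cytometry, on a 129S2/C57Bl6J strain background. Of the 3 embryo libraries, the control carries the label wild type and joins Theiler stages TS12 and TS13, whereas the T_Y88A libraries, from embryos with an amino acid substitution in T, come 1 from TS12 and 1 from TS13. The remaining 2 libraries, labelled wild type and T_Y88A, come from Day 4 of in vitro differentiation, in which aggregated mouse embryonic stem cells received BMP4 at 20 ng/mL for 18 hours and then WNT3A and FGF8, each at 40 ng/mL. The series' design text gives the control genotype as T_het, and the table column assigned to the control embryos bears a name that starts like those of the T_Y88A columns, so every genotype direction in embryos rests on the sample label. That library is called the embryo control from here on. Genotype and stage cannot be told apart in the embryo comparison, since the control mixes the stages. Nothing in the labels says that libraries came from separate embryos or cultures, so p-values measure only the spread between these libraries.

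Values are FPKM, fragments scaled to gene length and to the library's mapped total, which correct for gene length and can be compared between genes. Absolute depth is unknown. Relative to the embryo control, depth was 0.754 in T_Y88A TS12, 0.971 in T_Y88A TS13, 1.04 at Day 4 in wild type and 0.493 at Day 4 in T_Y88A. T itself stood between 26.99 and 72.9 FPKM in the 5 libraries. Of the 39 members, 20 overlap another annotated gene and 10 overlap another member (Hoxa3 with Hoxa4, Hoxa5 and Hoxa6, Hoxb3 with Hoxb4, Hoxd3 with Hoxd4, and Hoxd10 with Hoxd11), so the split of fragments among these is uncertain. A value of 0 can be a failed estimate, as 3 genes at 0 in a single library exceeded 20 FPKM in each of the other 4, and is given as listed at 0.

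In the embryo cells the members with paralog numbers 1 to 9 were transcribed in all 4 clusters, and the level dropped sharply from number 10 onwards. Cluster C has no member below number 4. Each of the 27 genes with numbers 1 to 9 was above 0 in all 3 embryo libraries, and 26 of them were at 1 FPKM or more in each, Hoxa6 being the exception. Among the 12 genes with numbers 10 to 13, 1 (Hoxa10) reached 1 FPKM in all 3 libraries, and Hoxc11, Hoxc12 and Hoxd12 were listed at 0 in every library of the series. The median member of groups 1 to 9 stood at 13.5 FPKM in the embryo control, 12.7 in the TS12 library of T_Y88A and 15.4 in the TS13 library, against medians of 0.497, 0.0728 and 0.0314 FPKM for groups 10 to 13.

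**Figure D1:**
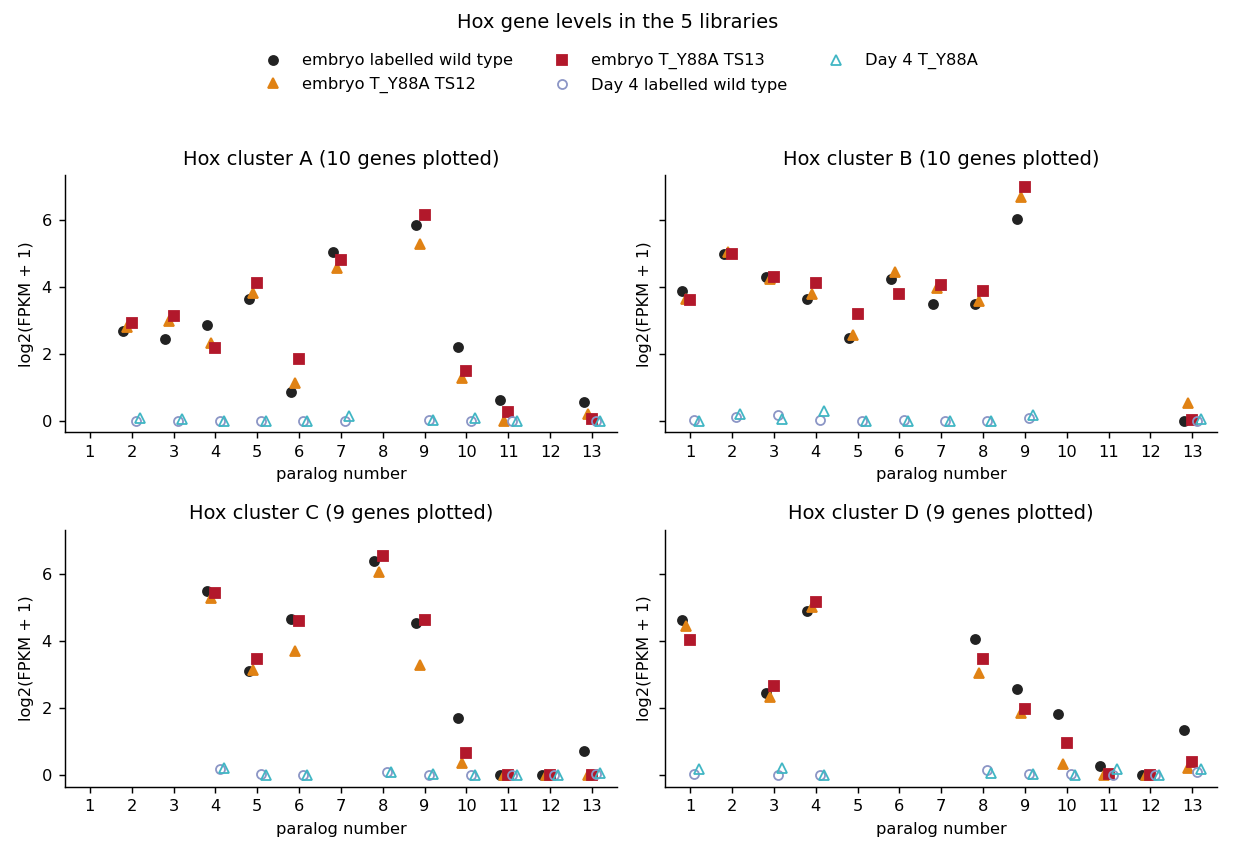
Level of each Hox gene, as log2(FPKM + 1), against its paralog number, with 1 panel for each cluster and 1 symbol for each of the 5 libraries (filled symbols for embryos, open symbols for Day 4). In the embryo libraries the levels run through paralog number 9 and drop at number 10, and the Day 4 symbols lie near 0. Of cluster A, 10 genes are plotted.

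The highest member of cluster B was Hoxb9, a patterning gene of the thoracic region, at 64.3 FPKM in the embryo control, 101.6 in the TS12 library of T_Y88A and 124.6 in the TS13 library. Both T_Y88A libraries were higher than the embryo control, and Hoxb9 was the highest Hox gene of either T_Y88A library. In cluster C the highest member was Hoxc8, also a thoracic patterning gene, at 83.5, 65.4 and 91.8 FPKM in the same order, with the embryo control between the T_Y88A libraries. Hoxa9 led cluster A, at 56.4, 37.6 and 70.1 FPKM, and it too had the control between the T_Y88A libraries. The order among these leading genes changed from library to library: Hoxc8 was above Hoxb9 in the embryo control and below it in both T_Y88A libraries.

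Cluster D was led by Hoxd4, a gene of the hindbrain and neck level, at 29.1 FPKM in the embryo control, 31.3 in the TS12 library of T_Y88A and 34.9 in the TS13 library. Further along the cluster Hoxd9 stood at 4.91, 2.63 and 2.90 FPKM, Hoxd10 at 2.56, 0.258 and 0.937 FPKM and Hoxd13, the member at the end of the cluster and a regulator of digit and genital development, at 1.53, 0.154 and 0.309 FPKM. For Hoxd9, Hoxd10 and Hoxd13 both T_Y88A libraries lay below the embryo control, and for Hoxd4 both lay above it. The 250 bases before an annotated start of each of these 4 genes (RefSeq, GRCm38.p6, plus strand) are shown because they lie in 1 cluster and differ in that direction. The windows span chr2:74721728-74721977 for Hoxd4, chr2:74697513-74697762 for Hoxd9, chr2:74691641-74691890 for Hoxd10 and chr2:74667975-74668224 for Hoxd13. The Hoxd10 window lies inside the annotated gene span of 74684273 to 74695106, so it precedes an internal start, unlike those of Hoxd4, Hoxd9 and Hoxd13. Capitals mark a CDX-type core (TTTATG or its reverse complement CATAAA), the core of a T half-site (GGTGTGA or TCACACC) and a TATA box (TATAAA or TTTATA), searched on both strands.
Hoxd4: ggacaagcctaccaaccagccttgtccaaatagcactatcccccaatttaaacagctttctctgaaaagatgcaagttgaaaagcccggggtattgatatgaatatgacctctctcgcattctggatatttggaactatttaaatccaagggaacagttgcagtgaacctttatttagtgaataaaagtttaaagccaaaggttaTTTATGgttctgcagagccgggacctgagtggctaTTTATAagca
Hoxd9: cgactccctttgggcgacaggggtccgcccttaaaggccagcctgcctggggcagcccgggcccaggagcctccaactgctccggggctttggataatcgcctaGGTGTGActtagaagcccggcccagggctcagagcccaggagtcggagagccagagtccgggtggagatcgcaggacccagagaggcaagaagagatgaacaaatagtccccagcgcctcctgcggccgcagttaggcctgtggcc
Hoxd10: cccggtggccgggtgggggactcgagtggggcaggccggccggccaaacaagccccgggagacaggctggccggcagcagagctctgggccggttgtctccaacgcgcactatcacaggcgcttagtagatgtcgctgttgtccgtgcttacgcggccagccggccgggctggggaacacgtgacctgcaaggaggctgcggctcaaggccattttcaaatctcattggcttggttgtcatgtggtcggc
Hoxd13: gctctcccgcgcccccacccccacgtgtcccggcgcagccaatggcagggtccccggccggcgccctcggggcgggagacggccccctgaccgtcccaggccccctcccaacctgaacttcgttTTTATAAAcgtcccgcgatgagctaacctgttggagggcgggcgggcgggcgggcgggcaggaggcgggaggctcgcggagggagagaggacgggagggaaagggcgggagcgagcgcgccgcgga
The Hoxd4 window held a CDX-type core 45 bases before the start and a TATA box 10 bases before it, and was the poorest in G and C of all Hox windows, at 40.4%. The Hoxd9 window held a T half-site core 146 bases before the start, the Hoxd10 window held none of the motifs, and the Hoxd13 window, at 74.4% GC, held overlapping TATA matches on both strands 126 and 124 bases before the start.

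Across the clusters the promoter table held 24 windows for 22 of the 39 members. A CDX-type core was in 5 of these windows (20.8%), those of Hoxa7, Hoxb8, Hoxd3, Hoxd4 and 1 of the Hoxd11 windows, against 10.8% of all 32851 windows. The T half-site core was in 1 Hox window (4.17%, against 3.33% of all) and the TATA box in 4 (16.7%, against 12.4%). The median GC content was 58.6% in the Hox windows and 52.4% in all, and the median ratio of observed to expected CpG was 0.72 and 0.37. The genes and motifs were picked with the expression values known, and a match describes the letters of a window, not binding.

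Added up, the Hox genes held 581 FPKM in the embryo control, 544 in the TS12 library of T_Y88A and 665 in the TS13 library, so the summed level of the control lay between those of the T_Y88A libraries. The share of that sum from cluster B was 31.1% in the embryo control, 41.6% in the TS12 library of T_Y88A and 37.7% in the TS13 library. Shares from cluster C were 31.7%, 24.4% and 28.8%, from cluster D 14.2%, 12.2% and 10.5%, and from cluster A 23.1%, 21.8% and 23.0%. Cluster B thus had a higher share, and clusters C and D lower shares, in both T_Y88A libraries. Much of the cluster B sum came from 1 gene: Hoxb9 held 64.3, 101.6 and 124.6 FPKM of 180.5, 226.2 and 250.6 in the same order. The cluster B share without Hoxb9 was not computed, so the higher share cannot be assigned to the whole cluster or to Hoxb9 alone. With the values quantile-normalized the mean share of every cluster in the T_Y88A libraries moved by less than the SD between them.

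By paralog number, group 5 summed to 23.5, 25.8 and 34.4 FPKM and group 8 to 109, 83.4 and 115 FPKM in the same order, and the sums at the posterior end lay further apart. Paralog group 9 summed to 148 FPKM in the embryo control, 151 in the TS12 library of T_Y88A and 221 in the TS13 library. Groups 10 to 13 together summed to 11.8, 2.71 and 3.91 FPKM, which was 2.02%, 0.498% and 0.588% of all Hox FPKM. For groups 10 to 13 both T_Y88A libraries lay below the embryo control. In bulk libraries such as these, fewer cells that express a gene and less RNA per cell cannot be told apart.

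**Figure D2:**
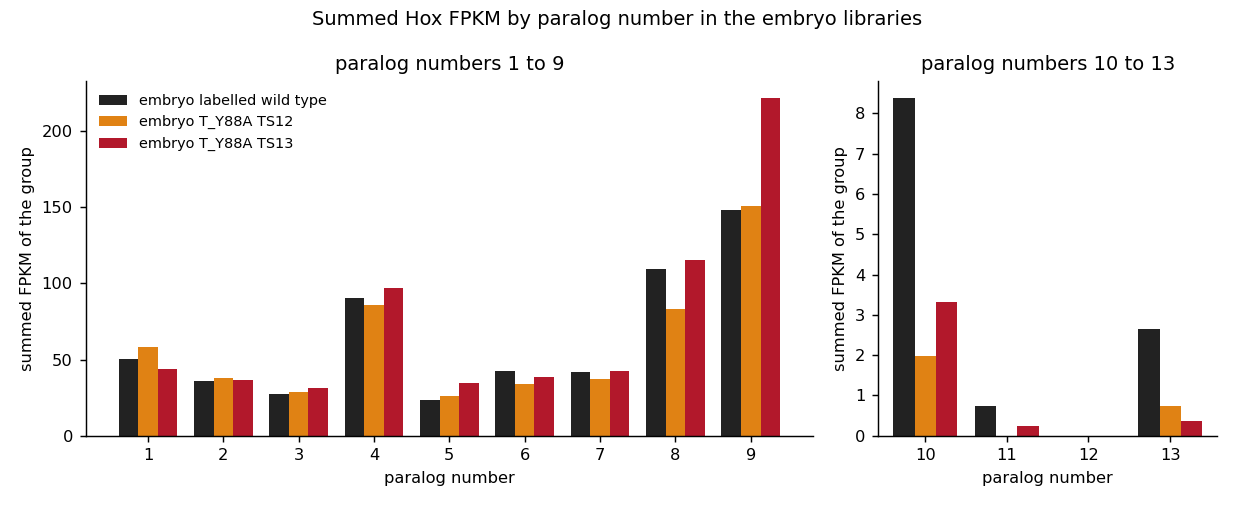
Summed FPKM of the Hox genes that share a paralog number, as bars for the 3 embryo libraries, with numbers 10 to 13 on a scale of their own. Groups 10 to 13 together sum to 11.8 FPKM in the embryo control and to 2.71 and 3.91 in the T_Y88A libraries, and group 9 is highest in T_Y88A TS13, at 221.

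The comparison of T_Y88A with wild type in embryos asks how Hox levels differ in T-positive cells whose T carries the substitution. Hoxb9 rose in the T_Y88A libraries, and no other member passed the test. Hoxb9 (chromosome 11, 96271330 to 96276595) had a mean of 113 ± 16.3 FPKM (SD, n = 2) in T_Y88A against 64.3 in the embryo control, a difference of 0.80 ± 0.17 (SE) on the log2(FPKM + 1) scale (adjusted p = 0.0352, limma over 11146 genes with Benjamini-Hochberg adjustment). Its differences were 0.65 in the TS12 library of T_Y88A and 0.94 in the TS13 library. Of the 30 members that averaged 1 FPKM or more in embryos, 1 was called, against 2.31% of all genes tested (0.727% higher and 1.59% lower). The Hoxb9 call ended with no filter on low values (adjusted p = 0.356), under quantile normalization (0.121), without the variance trend (0.130), with small RNA genes kept (0.0564) and in a fit of all 5 libraries (0.194), and its adjusted p ranged from 0.0324 to 0.356 over the alternatives. The spread in this test comes from 2 T_Y88A libraries of different stages and from variances shared across genes, with 1 residual degree of freedom.

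At an unadjusted p under 0.05 there were 10 of the 30 members, against 16.3% of all genes tested. Hoxb9, Hoxa3 and Hoxb7 were among the 4 with higher values in T_Y88A, and the 6 with lower values were Hoxa4, Hoxa10, Hoxc10, Hoxd8, Hoxd9 and Hoxd10. Hoxc10 and Hoxd10 were tested only because they were high in the control, so the count of lower members is given as a description. Hoxd8, a trunk gene, stood at 15.7 FPKM in the embryo control and at 7.21 and 10.2 in the TS12 and TS13 libraries of T_Y88A (log2 difference -0.80 ± 0.23 SE, adjusted p = 0.102, limma), with both T_Y88A libraries below the control.

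The lowest fitted differences were those of paralog group 10, whose genes pattern the lumbar level. Hoxc10 (chromosome 15, 102966796 to 102971898) stood at 2.24 FPKM in the embryo control, 0.283 in the TS12 library of T_Y88A and 0.582 in the TS13 library, a log2 difference of -1.18 ± 0.31 (SE, adjusted p = 0.0732, limma). Hoxd10 (chromosome 2, 74684273 to 74695106) had the 2.56, 0.258 and 0.937 FPKM given with cluster D, where the window before an internal start is printed. Its log2 difference was -1.19 ± 0.33 (SE, adjusted p = 0.0933, limma). Hoxa10 (chromosome 6, 52231197 to 52240854) stood at 3.59, 1.43 and 1.80 FPKM, a log2 difference of -0.82 ± 0.27 (SE, adjusted p = 0.152, limma). In all 3 members of the group both T_Y88A libraries lay below the embryo control, T_Y88A TS12 lowest, and none passed. Hoxc10 and Hoxd10 reached the filter through the control, where they were high, so for these genes a lower value in T_Y88A was built into the selection. The added 1 compresses these differences: with 0.1 added instead, those of Hoxc10 and Hoxd10 were -2.19 and -2.12 (adjusted p = 0.134 and 0.162, limma). Without the variance trend Hoxc10 passed (adjusted p = 0.0437, limma), and over its alternatives the adjusted p lay between 0.0437 and 0.356.

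The other 9 members of groups 11 to 13 were too low for the test. Hoxa11 stood at 0.536 FPKM in the embryo control, was listed at 0 in T_Y88A TS12 and stood at 0.206 in T_Y88A TS13. Hoxa13 stood at 0.457, 0.146 and 0.0377 FPKM, and Hoxd11 at 0.1999, 0 and 0.0250 FPKM. Hoxc13, the last gene of its cluster and a regulator of hair and nails, stood at 0.652 FPKM in the embryo control and at 0 in each T_Y88A embryo library. Hoxb13 went the other way, being listed at 0 in the embryo control and standing at 0.437 and 0.0189 FPKM in T_Y88A TS12 and TS13. Counting all 12 members of groups 10 to 13, 8 were lower in both T_Y88A libraries, 1 was higher in both and 3 were listed at 0 throughout; of all genes above 0 in an embryo library, 34.7% were lower in both and 37.0% higher in both (38.0% lower in both among genes tested), and members of a cluster are not independent of each other.

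**Figure D3:**
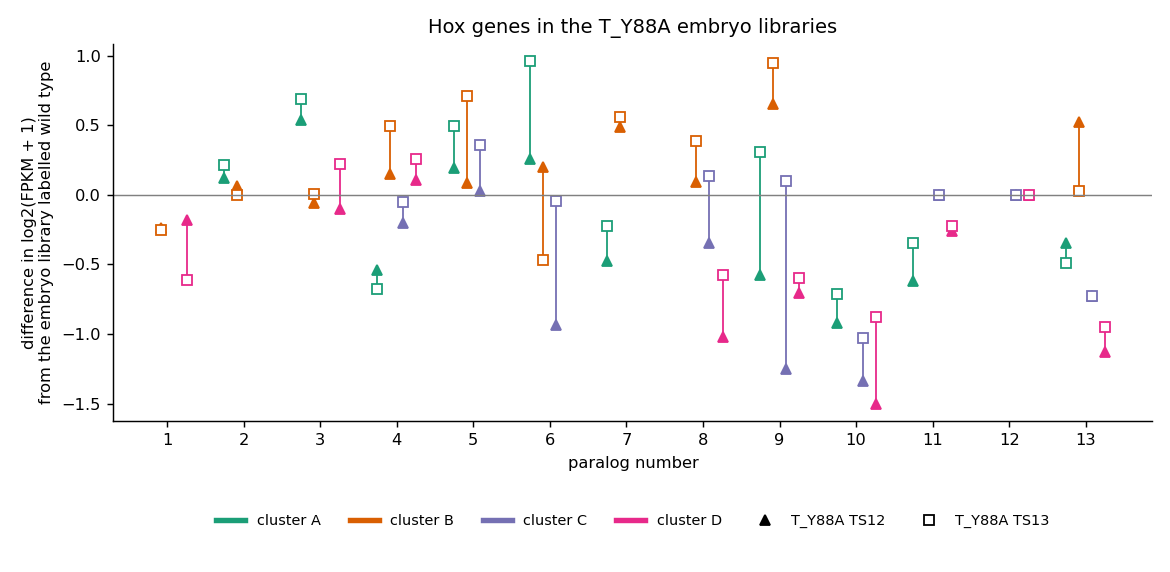
Difference of each T_Y88A embryo library from the embryo control in log2(FPKM + 1), by paralog number, coloured by cluster, with triangles for TS12 and open squares for TS13 joined by a line for each gene. Hoxb9 lies at 0.65 and 0.94, the group 10 genes lie between -0.71 and -1.50, and genes at 0 in all 3 libraries lie on the zero line; of cluster A, 10 genes are plotted.

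Genes of paralog groups 1 to 9 lay on both sides of the control. Of these 27, 13 were higher in both T_Y88A libraries, 8 were lower in both and 6 were on both sides of it. By cluster, 7 of 10 members of cluster B were higher in both T_Y88A libraries and 1 (Hoxb1) was lower in both. In cluster D 1 of 9 (Hoxd4) was higher in both and 6 were lower in both. The 7 include Hoxb2, with a log2 difference of 0.0002 at TS13, and Hoxb13, listed at 0 in the control and at 0.0189 FPKM at TS13. The 6 include Hoxd11, at 0.1999 FPKM in the control and lower in T_Y88A. Cluster A had 5 of 11 higher and 5 lower, and cluster C 1 of 9 higher and 4 lower. Of all genes above 0 in an embryo library 37.0% were higher in both and 34.7% lower in both, members of a cluster are not independent, and the difference between clusters was not tested. Hoxb2 and Hoxb3, genes of the hindbrain, were nearly level, at 30.2, 31.6 and 30.2 FPKM and at 18.6, 17.8 and 18.7 FPKM. The median log2 difference was 0.04 for the 8 members of the anterior groups 1 to 3 and 0.18 for the 15 members of the central groups 4 to 8, all tested, beside -0.01 over all genes tested.

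By the rule of size, at least 2-fold on the log2(FPKM + 1) scale with both T_Y88A libraries on the same side, Hoxc10 was the 1 member of 30 that was lower, against 1.43% of all genes tested, and no member was higher, against 0.359%. Hoxc10 reached the filter through the control, where it was high, so this count is given as a description. Markers of other cell types differed between the same libraries. The 5 presomitic mesoderm markers summed to 160 FPKM in the embryo control, 37.0 in the TS12 library of T_Y88A and 23.1 in the TS13 library, and all 5 were lower in both T_Y88A libraries. The 5 markers of allantois and lateral plate summed to 78.8, 61.0 and 53.9 FPKM, with 4 lower in both, among them Tbx4, a hindlimb and allantois gene, at 4.10, 0.839 and 1.13 FPKM. The 5 neural markers summed to 27.4, 43.6 and 73.0 FPKM, all higher in both. The 4 blood markers summed to 5057, 895 and 1775 FPKM and the 4 endothelial markers to 59.2, 20.8 and 28.4 FPKM, all lower in both. The 5 notochord and node markers summed to 9.94, 0.820 and 0.669 FPKM, all lower in both, with Noto and Foxj1 listed at 0 in both T_Y88A libraries. Other lists of 5 markers were mixed: somite had 3 lower and 1 higher in both, streak and caudal epiblast 1 and 1, and endoderm 2 and 1. Of all genes above 0 in an embryo library, 34.7% were lower in both and 37.0% higher in both (38.0% lower among genes tested). The part of all these cell types in the Hox differences was not tested.

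Between the T_Y88A libraries, which differ in stage and have no replicates, most Hox genes stood higher at TS13. Of 39 members, 27 were higher at TS13 and 8 were lower, and among all genes that averaged 1 FPKM or more 48.2% were higher. Hoxc9 (chromosome 15, 102977032 to 102984444), a thoracic gene, stood at 8.73 FPKM at TS12 and 23.8 at TS13, and was the 1 member of 28 at least 2-fold higher, against 0.470% of all genes; its level in the control that joins both stages was 22.2. No member was 2-fold lower, against 0.588% of all genes. At 1.5-fold there were 5 members higher (Hoxa6, Hoxa9, Hoxb5, Hoxc6 and Hoxc9) against 2.63% of all genes, and 1 lower (Hoxb6) against 2.71%. The median difference was 0.23 on the log2 scale over the 28 members and -0.01 over all genes.

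Of the 15 central members, 13 stood higher at TS13, Hoxa4 and Hoxb6 being lower. The 8 anterior members were split 4 and 4, and of the 16 members of groups 9 to 13, 10 were higher and 2 lower. A relation to paralog number was not tested. Hoxd1, of the group that is switched on earliest, had a log2 difference of -0.43. Hoxb6, a thoracic gene, went from 20.6 to 12.6 FPKM while its neighbour Hoxb5 went from 4.82 to 8.004 FPKM. Hoxb13 went from 0.437 to 0.0189 FPKM.

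**Figure D4:**
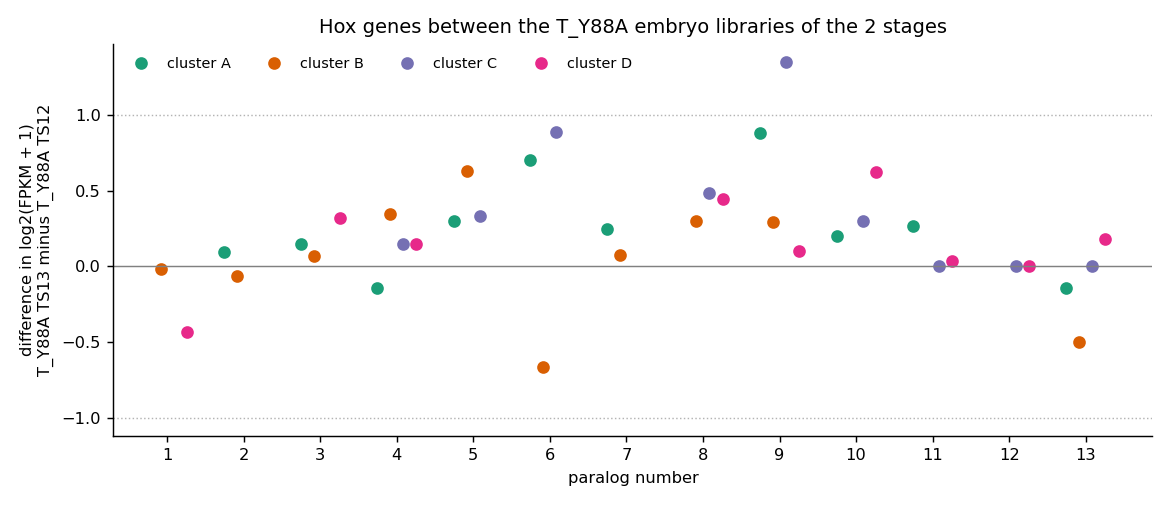
Difference of T_Y88A TS13 from T_Y88A TS12 in log2(FPKM + 1) for each Hox gene, by paralog number and coloured by cluster; dotted lines mark a 2-fold difference. Hoxc9 lies above the upper line at 1.35, most central genes lie above 0, and Hoxd1 and Hoxb6 lie below it; of cluster A, 10 genes are plotted.

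At Day 4 of in vitro differentiation the Hox clusters were nearly silent although the sorted cells expressed T. The 39 genes summed to 1.62 FPKM in wild type and 2.93 in T_Y88A, against 544 to 665 FPKM in the embryo libraries. At 1 FPKM or more there were 0 members in wild type and 1 in T_Y88A. Hoxb3 stood at 0.130 FPKM in wild type and Hoxb4 at 0.209 FPKM in T_Y88A, and 13 members were listed at 0 in both libraries.

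Of the 27 members at 1 FPKM or more in all 3 embryo libraries, 26 were below 1 FPKM in both Day 4 libraries. All 26 were also below 0.5 FPKM in both. Among all genes at 1 FPKM or more in the 3 embryo libraries, 3.82% were below 1 FPKM in both Day 4 libraries. In 32 of 39 members, with no filter on level, the higher Day 4 value lay below the lowest embryo value. The same held for 34.8% of the 11603 genes tested, which averaged 1 FPKM or more, so the 2 sets are not alike. In the wild-type libraries alone, 29 of the 29 members that averaged 1 FPKM or more were at least 2-fold higher in the embryo, against 11.3% of all genes, with no replicates behind either value. Limma called 27 of the 27 members tested higher in embryos, against 26.0% of all genes (51.8% in either direction). In both comparisons the members passed the filter through their embryo levels, so they had to differ from Day 4, and both counts are given as a description. Hoxc8, for example, stood at 65.4 to 91.8 FPKM in the embryo libraries and at 0.0686 and 0.0618 at Day 4, and Hoxa10 at 1.43 to 3.59 FPKM against 0 and 0.0451. Embryo and culture also differ in other ways: the 5 endoderm markers summed to 12.6 to 26.7 FPKM in embryos and to 362 and 343 at Day 4. Of the Day 4 sums, Epcam held 290 and 268 FPKM and Cdh1 70.7 and 72.3. Sox17 stood at only 1.37 and 1.99 FPKM at Day 4, against 1.54, 0.662 and 1.15 in embryos. Ttr (0.0380 and 0.160) and Apoa1 (0.0236 and 0.0990) were low at Day 4 too. The 5 notochord and node markers summed to 0.669 to 9.94 FPKM in embryos against 69.2 and 47.2 at Day 4. Presomitic markers ran the other way, at 23.1 to 160 FPKM in embryos against 9.42 and 3.34, and the part of these cell types was not tested.

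The genotypes could not be compared gene by gene at Day 4, since no member reached a mean of 1 FPKM there. Of the 11553 genes that passed the filter 0.649% were at least 2-fold higher and 1.30% lower on the log2(FPKM + 1) scale. At levels as low as those of the Hox genes, the added 1 leaves no room for a 2-fold difference on that scale, so the rule was not applied to them. The summed level was higher in T_Y88A, and 18 members were higher there, 8 were lower and 13 were listed at 0 in both. The T_Y88A library was the shallower, by a factor of 2.101. Of the 15 members above 0 in both libraries, 4 (Hoxa9, Hoxb9, Hoxc13 and Hoxd13) had a ratio of T_Y88A to wild type equal to that factor within 0.03 on the log2 scale. In the other 11 the ratio ran from 0.226 (Hoxb3) to 21.0 (Hoxd3), with Hoxd8 at 0.300, Hoxd1 at 5.26, Hoxb4 at 11.6 and Hoxd11 at 18.9. These ratios of very low values have no replicates, and the part of depth in them was not tested.

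Over all 5 libraries, with the system as a covariate, limma called none of the 27 members for genotype, against 0.0689% of all genes (0.00862% higher and 0.0603% lower). An unadjusted p under 0.05 was found for 2 of the 27 members, against 1119 of the 11603 genes tested. Hoxb9 was among these 2 members, with a log2 difference of 0.49 ± 0.20 (SE, adjusted p = 0.494, limma). The interaction of genotype and system, which asks whether the genotype difference in embryos is unlike that at Day 4, was called for none of the 27 members, against 0.147% of all genes (0.0603% higher and 0.0862% lower). Hoxa10 alone of the 27 had an unadjusted p under 0.05 (adjusted p = 0.387, limma), against 1469 of the 11603 genes tested.

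The genes known to switch on the clusters in the tail end were measured beside them. Of 14 tested upstream regulators, 1 fell in the T_Y88A embryo libraries and none rose, against 1.59% and 0.727% of all genes tested. Cyp26a1, the enzyme that clears retinoic acid from the tail end, had a log2 difference of -2.51 ± 0.21 (SE, adjusted p = 6.87e-05, limma), a call that ended with no filter on low values (adjusted p = 0.356). The CDX factors, direct activators of central Hox genes, were present in all embryo libraries. In the embryo control Cdx2 had 73.8 FPKM, against 101.2 in the TS12 library of T_Y88A and 72.3 in the TS13 library. Cdx4 stood at 83.5, 102.3 and 79.9 FPKM. Cdx1 stood at 9.97, 47.9 and 11.4 FPKM, high in T_Y88A TS12 and nearly level in the other embryo libraries (log2 difference 1.17 ± 0.53 SE, adjusted p = 0.304, limma). Gdf11, the ligand that starts the trunk-to-tail transition and with it the posterior Hox genes, stood at 15.0, 15.9 and 19.5 FPKM and did not pass (log2 difference 0.22 ± 0.20 SE, adjusted p = 0.649, limma).

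Between embryo and Day 4, 9 of 13 tested regulators were higher in embryos and 1, Fgf8, was lower, against 26.0% and 25.9% of all genes. The CDX genes and Wnt3a were below 1 FPKM at Day 4 and passed the filter through their embryo levels, so they had to differ and are given by their values. At Day 4 Cdx2 stood at 0.0974 FPKM in wild type and 0.250 in T_Y88A. Cdx4 stood at 0.0436 and 0.0612 FPKM and Cdx1 at 0.0928 and 0.223 FPKM, so that all 3 CDX genes were below 0.5 FPKM in both Day 4 libraries. Wnt3a, whose protein was supplied to the culture, stood at 0.00844 FPKM in wild type and was listed at 0 in T_Y88A. Fgf8, supplied as protein too, stood at 26.5 and 54.3 FPKM at Day 4 against 13.1, 9.99 and 3.78 in embryos (log2 difference -2.09 ± 0.47 SE, adjusted p = 0.00637, limma), a call that ended without the Day 4 T_Y88A library (-0.96, adjusted p = 0.186), with no filter (0.0574) and with robust variance estimates (0.0861).

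**Figure D5:**
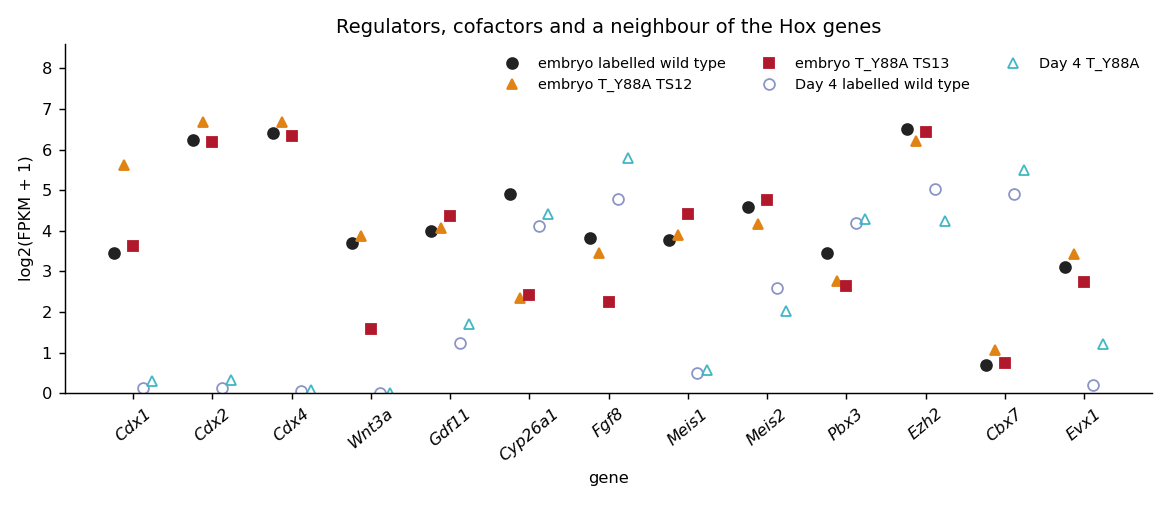
Level, as log2(FPKM + 1), of regulators and cofactors of the Hox genes and of Evx1, which lies beside cluster A, in the 5 libraries. Cdx1, Cdx2 and Cdx4 are near 0 in both Day 4 libraries, Cbx7 and Fgf8 are higher at Day 4 than in embryos, and Cyp26a1 is low in both T_Y88A embryo libraries.

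Among the TALE homeodomain proteins, which bind DNA together with HOX proteins, none of 8 tested passed between genotypes in embryos, against 2.31% of all genes. Between embryo and Day 4, 5 of 9 were higher in embryos, among them Meis1, Meis2, Meis3 and Pknox2, and 2 were lower (Pbx3 and Pbx4), against 26.0% and 25.9% of all genes. Meis1 stood at 12.6, 13.8 and 20.3 FPKM in embryos and at 0.406 and 0.496 at Day 4, and it too passed the filter through its embryo levels. Pbx3 stood at 9.93, 5.74 and 5.26 FPKM in embryos and at 17.3 and 18.7 at Day 4, so the cofactors did not share a direction.

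Of 13 tested Polycomb and trithorax genes, which keep Hox clusters silent or active, none passed between genotypes in embryos, against 2.31% of all genes. Between embryo and Day 4, of 13 tested, 5 were higher in embryos (Bmi1, Cbx2, Eed, Ezh2 and Kdm6b) and 3 lower (Cbx7, Jarid2 and Kdm6a). That share was near the 51.8% of all genes called in either direction. Ezh2, the methyltransferase that places the repressive H3K27me3 mark, stood at 90.6, 72.8 and 85.0 FPKM in embryos and at 31.4 and 17.9 at Day 4 (log2 difference 1.83 ± 0.17 SE, adjusted p = 0.000112, limma). Cbx7, a reader of that mark known from embryonic stem cells, stood at 0.631, 1.09 and 0.667 FPKM in embryos and at 28.9 and 43.8 at Day 4, and it passed the filter through its Day 4 levels. For both genes the embryo and Day 4 values did not overlap.

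Genes beside the clusters were mostly not tested: 15 of the 24 listed were in the table and 5 passed the filter in each fit. None passed between genotypes in embryos, against 2.31% of all genes, and 3 were higher in embryos than at Day 4, against 26.0% of all genes. Evx1, a homeobox gene beside cluster A, stood at 7.63, 9.86 and 5.71 FPKM in embryos and at 0.145 and 1.31 at Day 4, and passed the filter through its embryo levels. Evx2, beside cluster D, was listed at 0 in every library. Hence the gene just beyond the posterior end was transcribed at cluster A and listed at 0 at cluster D.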

How the data were processed

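Expression values were used as deposited by the authors, in FPKM for 5 RNA libraries (5 columns matched through the labels, 0 left unused). Per the submitters' processing notes, the tools of the series include bedtools 2.23.0, Cufflinks 2.1.1 and TopHat2 2.0.8, and the build is mm10; their roles, and whether counting used strand, are not given in the sources used here. Per the labels' protocols, a ScriptSeq v2 low-input kit was used on sorted, lysed cells. The 7 chromatin samples were not analysed here.

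Values were taken as log2(FPKM + 1), which understates the change of low genes, after 782 small RNA symbols were left out. Genes that averaged 1 FPKM or more in the compared libraries were fitted with limma 3.58.1 (R 4.3.3, variance trend), two-sided, with Benjamini-Hochberg adjustment over all genes tested and a threshold of 0.05. The embryo fit had 1 residual degree of freedom and 10.8 prior degrees of freedom, and the control's spread was taken to equal that of T_Y88A. The fit of all 5 libraries with genotype and system had 2 residual degrees of freedom. With the interaction added it had 1, from the T_Y88A embryo libraries, and 5.04 prior degrees of freedom. Comparisons of 1 library with 1 library had no test. Relative depth came from the commonest ratio among values below 0.06 FPKM (112 to 193 genes, of which 16.5% to 25.9% lay within 0.03 on the log2 scale). Python 3.11.15, pandas 2.3.3, numpy 2.4.6 and matplotlib 3.10.9 were also used. Every member could be named, and other genes only from fixed lists of TALE cofactors, upstream regulators, Polycomb and trithorax genes, cluster neighbours and cell type markers. The members were matched by name alone, although earlier results of these data were known when they, the lists, promoters and motifs were chosen. The values of 1 member and 1 cofactor are not reported here; counts and sums include them. Somite markers (5 genes) summed to 19.3, 8.92 and 15.6 FPKM in embryos and 2.44 and 3.55 at Day 4, and streak and caudal epiblast markers (5 genes) to 198, 286, 164, 101.0 and 88.0 FPKM.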

Additional observations from a re-analysis of the deposited data

Results flagged for a closer look

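Cyp26a1, which degrades retinoic acid, drew attention because its genotype difference in embryos was unlike that at Day 4 by the interaction test. In embryos it stood at 28.8 FPKM in the control, 4.08 in the TS12 library of T_Y88A and 4.38 in the TS13 library. At Day 4 it stood at 16.5 FPKM in wild type and 20.3 in T_Y88A. The interaction was -2.80 ± 0.28 (SE) on the log2 scale (adjusted p = 0.0425, limma), lower in both T_Y88A embryo libraries and higher in the 1 T_Y88A library at Day 4. The call ended under 6 alternatives, and the adjusted p ranged from 0.00798 to 0.184 over all 8 (limma). The interaction test had 1 residual degree of freedom, from the T_Y88A embryo libraries, and the Day 4 libraries added no spread.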

How the results depend on the processing

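No paired analysis was possible because the labels give no replicate numbers and each system has 1 library labelled wild type. The count of Hox genes called between genotypes in embryos, 1 of 30, was 0 with no filter (0 of 36), after quantile normalization, when small RNA genes were kept and for genotype within embryos from all 5 libraries (0 of 27); it was 1 in the other alternatives, without the variance trend through Hoxc10 in place of Hoxb9. Leaving out a T_Y88A library left no residual degrees of freedom and hence no test; the Hoxb9 difference was then 0.65 or 0.94. With no filter, 1 member (Hoxc13) was called for the interaction. Hoxd9 over all 5 libraries changed from -0.37 to 0.0016 without the embryo control, and lay between -0.65 and 0.0016 without 1 library at a time. Between stages, 2 members were 2-fold apart at a pseudocount of 0.1 (Hoxa6 and Hoxc9), 6 at 1.5-fold and 0 at 4-fold, against 1. Without 1 library at a time, the members called were 0 to 0 for genotype over all 5 libraries and 26 to 28 for embryo against Day 4. Over all genes, the embryo calls were 81 higher and 177 lower, 3 and 30 under quantile normalization, 2 and 20 in the fit of all 5 libraries and 0 with no filter (2247 at an unadjusted p under 0.05). Genotype calls over 5 libraries were 1 higher and 7 lower, and 0 higher with 1 to 2 lower with no filter or a pseudocount of 0.1; without 1 library they were 0 to 7 higher and 3 to 37 lower. Interaction calls were 7 higher and 10 lower, 270 and 976 with no filter, 1 and 5 at a mean of at least 0.5 FPKM, 3 and 7 under quantile normalization, 2 and 6 without the trend and 2 and 7 with small RNA genes kept. Causes were not tested. The Wnt3a difference between embryo and Day 4 lost its call with robust variance estimates (adjusted p = 0.0513), and the Cyp26a1 difference in embryos with no filter (0.356). Unknown depth and 1 to 2 libraries a group limit all values below 1 FPKM.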

Other observations

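The antisense transcript of Hoxa11, listed as Hoxa11as, stood at 1.32 FPKM in the embryo control, 0.225 in the TS12 library of T_Y88A and 0.148 in the TS13 library, and was listed at 0 in both Day 4 libraries; without knowledge of strand in the counting, its fragments and those of Hoxa11 cannot be told apart. Hotair, the noncoding RNA of cluster C, was listed at 0 in the 3 embryo libraries and in the Day 4 library labelled wild type, and stood at 0.154 FPKM in Day 4 T_Y88A.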
